A study of Mus musculus with 8 samples.

Results

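Mature oligodendrocytes (MOL) of the mouse visual cortex (VC) are described here as the nuclei to which the deposited annotation gives the class name MOL. There were 1047 of them among 44021 nuclei, or 2.38% of the nuclei and 5.47% of the UMIs (unique molecular identifiers, the counted RNA molecules). They were compared within each library with the 2 earlier stages of the same annotation, myelin-forming oligodendrocytes (MFOL, 319 nuclei) and newly formed oligodendrocytes (NFOL, 2765 nuclei). Together with 8363 oligodendrocyte precursor cells (OPCs) and 353 mitotic OPCs, these stages made up a lineage of 12847 nuclei.

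The study isolated nuclei from the VC at postnatal day 14 (P14), sorted those negative for the neuronal marker NeuN, and sequenced their RNA to ask how glia change when neuronal or astrocyte activity is lowered. VGlut2 cKO mice carry floxed Slc17a6, the gene of the vesicular glutamate transporter VGlut2, together with Cre expressed from the RORα locus, which is active in thalamic neurons, so the deletion was not aimed at oligodendrocytes. VGlut2 WT mice carry the same floxed gene without Cre. Ip3r2 KO mice lack Itpr2, which encodes the type 2 IP3 receptor, in every cell, and Ip3r2 WT mice were littermates or other C57BL/6J mice. The 4 groups had 2 libraries each, 1 female and 1 male, and the VC of 2 mice of 1 genotype and sex was combined for each. By the study's methods, nuclei were isolated, sorted and barcoded as 1 WT and 1 mutant sample a day, and all libraries were then prepared and sequenced at once. The labels do not say which libraries shared a day, and since no day held both models, model and processing day cannot be told apart.

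Oligodendrocytes wrap axons in myelin. They arise from OPCs, which leave the cell cycle and pass through the NFOL stage, in which branches grow and contact axons, and the MFOL stage, in which the sheath is laid down, before they reach the MOL stage, in which myelin is maintained. MOL are usually recognised by transcripts of the myelin proteins Mog, Mobp and Mag. Levels of single genes were not analysed here, so the name MOL could not be checked against these markers, nor the deleted genes against the genotype labels. The values below are numbers of nuclei, UMIs and detected genes per nucleus, and the share of UMIs from mitochondrial transcripts.

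Libraries held 4767 to 5920 nuclei, and the median nucleus of a library had 1343 to 2242 UMIs. In all, 475 of the 44021 nuclei (1.08%) had a barcode that also occurred in another library. Among MOL there were 12 of 1047 (1.15%), and 2 of these 12 had a MOL nucleus as the partner.

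MOL were the class with the most RNA and the most detected genes. Among 17 classes (the 4 astrocyte groups joined), MOL had the highest median number of genes in 8 of 8 libraries and the highest median number of UMIs in 7 of 8. The exception was the female VGlut2 WT library, where MFOL had slightly more UMIs. The median MOL nucleus held 2.31 to 2.87 times the UMIs of the median nucleus of its library. Classes were clustered on the genes of these same nuclei, so RNA content and class name are not fully separate measurements. Over the pooled 1047 nuclei the median was 4313 UMIs (lowest 273, highest 15795) and 1628 genes (lowest 222, highest 3423). Nuclei with under 1000 UMIs made up 1.72% of MOL (18 nuclei), against 0.940% of MFOL, 2.75% of NFOL, 1.78% of OPCs and 1.70% of mitotic OPCs. They made up 16.5% of all nuclei, so a low share was common to the lineage. The 6 nuclei of the whole table with more than 10000 UMIs were all MOL, 4 from the female Ip3r2 KO library and 2 from the female Ip3r2 WT library. The authors had removed doublets before deposit, and no further doublet call was made.

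In the VGlut2 cKO libraries the median MOL nucleus had 4442 (female) and 3262 (male) UMIs, against 3721 (female) and 3499 (male) in the VGlut2 WT libraries. In the Ip3r2 KO libraries it had 5494 (female) and 5811 (male) UMIs, against 5489 (female) and 5406.5 (male) in the Ip3r2 WT libraries. Mutant and WT libraries overlapped for VGlut2, and for Ip3r2 both KO values lay above both WT values by a small margin. For MFOL the medians, female before male, were 4045 and 3139 UMIs in VGlut2 cKO, 3733.5 and 3258 in VGlut2 WT, 4221.5 and 4820 in Ip3r2 KO, and 4215 and 4404 in Ip3r2 WT. For NFOL they were 2520 and 2076 in VGlut2 cKO, 2226 and 2241 in VGlut2 WT, 2864.5 and 3089 in Ip3r2 KO, and 2983 and 2899 in Ip3r2 WT, in the same order. NFOL were the lowest of the 3 stages in every library.

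**Figure D1:**
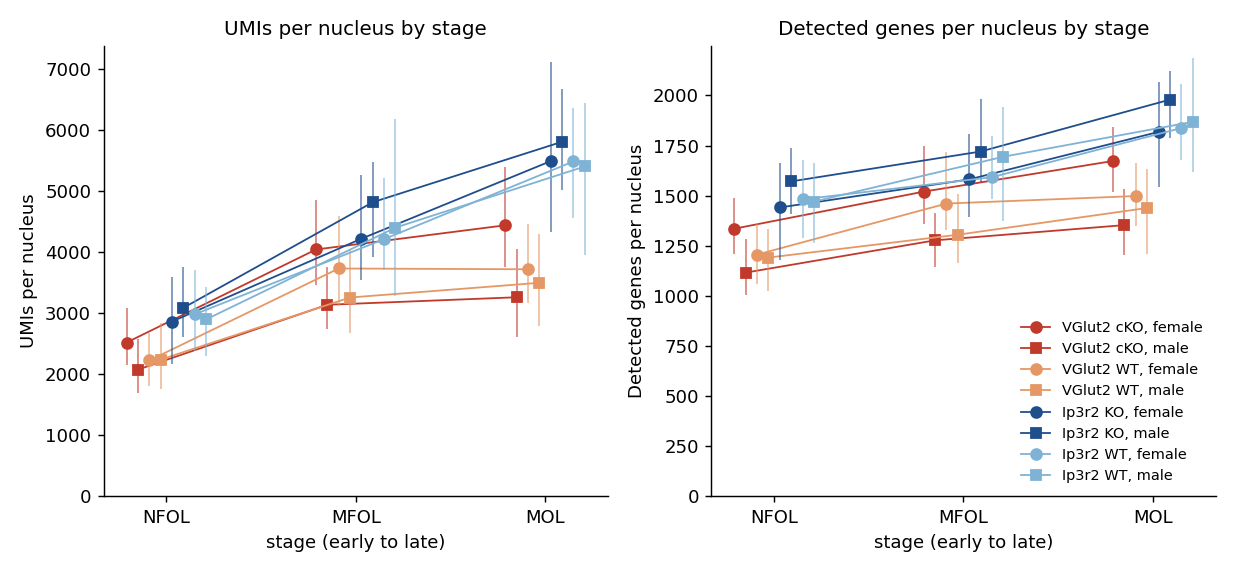
UMIs (left) and detected genes (right) per nucleus for NFOL, MFOL and MOL in each of the 8 libraries; points are medians over nuclei, vertical lines run from the 25th to the 75th percentile, and colours and markers give group and sex. The MOL medians run over 3262 to 5811 UMIs and lie above the NFOL medians of the same library in 8 of 8 libraries.

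MOL exceeded NFOL 1.75-fold in median UMIs, a mean log2 difference of 0.81 ± 0.12 (SD, n = 8 libraries). The fold was 1.56 to 1.92 and above 1 in 8 of 8 libraries (exact sign-flip test over libraries, two-sided p = 0.00781, the smallest that 8 libraries can give, adjusted p = 0.0104 over 8 tests of stages). The step from MFOL was smaller. MOL exceeded MFOL 1.15-fold (log2 0.20 ± 0.15, SD, n = 8 libraries), with folds of 0.997 to 1.30 and MOL higher in 7 of 8 libraries (exact sign-flip test, p = 0.0156, adjusted p = 0.0179).

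Detected genes followed the same order. The median MOL nucleus had 1353 to 1979 genes, the median MFOL nucleus 1277 to 1720 and the median NFOL nucleus 1116 to 1571, depending on the library. MOL exceeded MFOL 1.10-fold (1.03 to 1.15) and NFOL 1.24-fold (1.21 to 1.27), each in 8 of 8 libraries (exact sign-flip tests, both adjusted p = 0.0104).

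More UMIs give more detected genes, so stages were also compared at equal UMIs. In this comparison the order of MOL and NFOL turned round: a MOL nucleus showed fewer genes than an NFOL nucleus with the same number of UMIs. In nuclei with 2000 to 3000 UMIs, the median was 1199.5 genes in 126 MOL nuclei, 1143 in 42 MFOL nuclei and 1303 in 1178 NFOL nuclei. Between 4000 and 5000 UMIs it was 1655 genes in 250 MOL nuclei, 1639 in 76 MFOL nuclei and 1830 in 190 NFOL nuclei. NFOL were highest in each of the 5 windows from 1000 to 6000 UMIs. In a fit of genes on UMIs and stage in each library, MOL had 0.877 times the genes of NFOL (0.836 to 0.916, lower in 8 of 8 libraries, exact sign-flip test, adjusted p = 0.0104). Against MFOL the factor was 1.01 (0.978 to 1.06, higher in 5 of 8 libraries), and this difference did not pass the test (exact sign-flip test, p = 0.203).

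The mitochondrial share was lowest in MFOL, intermediate in MOL and highest in NFOL. With the UMIs of a stage summed, it was 2.86 to 3.21% in MOL, 2.73 to 2.92% in MFOL and 3.31 to 3.63% in NFOL over the 8 libraries. The ranges of MOL and MFOL overlapped between libraries, but within each library MOL lay above MFOL. The odds were 1.10 times those of MFOL (1.03 to 1.18, higher in 8 of 8 libraries) and 0.880 times those of NFOL (0.820 to 0.935, lower in 8 of 8 libraries), with exact sign-flip tests at an adjusted p = 0.0104 for both. These odds were not adjusted for UMIs. With the libraries pooled, the gap between NFOL and MOL was smaller in windows of more UMIs. Between 1000 and 2000 UMIs the summed share was 3.339% in MOL and 3.822% in NFOL. Between 4000 and 5000 UMIs it was 3.096% in MOL and 3.171% in NFOL. Between 5000 and 6000 UMIs it was 2.993% in MOL and 2.995% in NFOL. MFOL were lowest in each window. The difference between stages in mitochondrial share at equal UMIs was not tested. Among 17 classes, MOL ranked 14th to 16th from the top in median mitochondrial share. Which mitochondrial transcripts entered the share is not given in these sources.

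**Figure D2:**
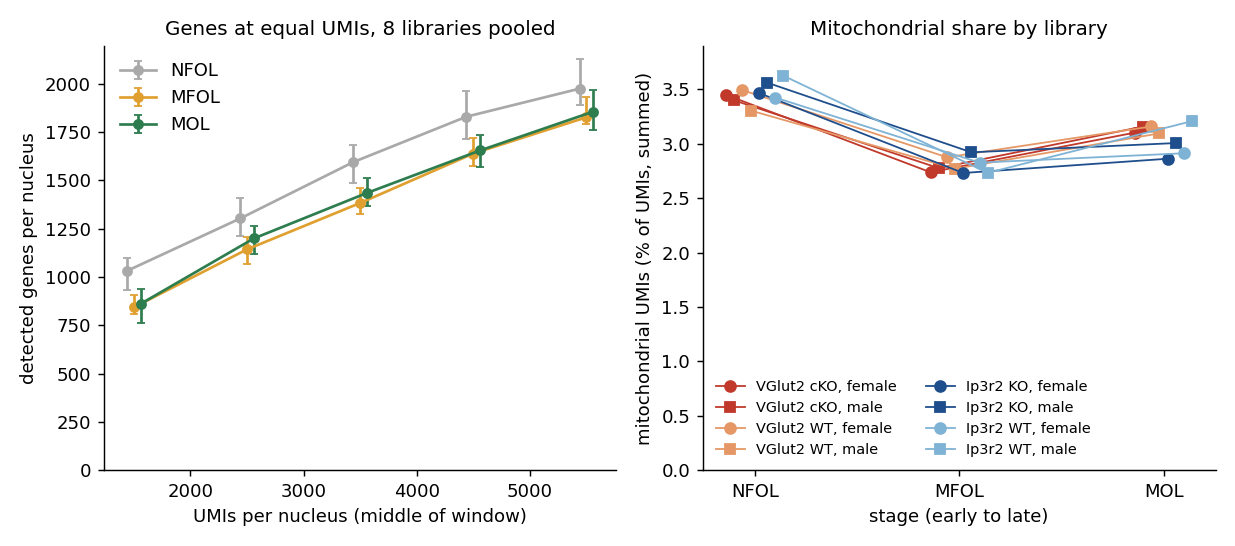
Left, detected genes per nucleus by window of UMIs for NFOL, MFOL and MOL with the 8 libraries pooled (points are medians over nuclei, bars the 25th to 75th percentile); right, mitochondrial UMIs as a percent of the summed UMIs of a stage in each library. At 2000 to 3000 UMIs the MOL median was 1199.5 genes against 1303 in NFOL, and the mitochondrial share of MOL lay between those of MFOL and NFOL in every library.

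How far MOL stood above the earlier stages was also compared between the libraries of the 2 models, a comparison chosen after the values had been seen. MOL had 1.30, 1.21, 1.30 and 1.23 times the median UMIs of MFOL in the 4 Ip3r2 libraries (KO female, KO male, WT female, WT male). In the 4 VGlut2 libraries the folds were 1.10, 1.04, 0.997 and 1.07 (cKO female, cKO male, WT female, WT male). The 2 sets did not overlap. The mean fold was 1.26 in Ip3r2 libraries and 1.05 in VGlut2 libraries, a log2 difference of 0.26 (exact permutation test of 4 against 4 libraries, p = 0.0286, the smallest that this design can give).

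This difference did not pass the threshold of 0.05 after adjustment. Over the 16 tests run between the libraries of the 2 models the adjusted p was 0.0508. The first 14 of these had been run before tests of the 2 MOL shares were added, and over those 14 alone the adjusted p was 0.0444, so the call depended on how many tests were counted. The same p values applied to the step from NFOL, which was 1.88-fold in Ip3r2 libraries and 1.64-fold in VGlut2 libraries, and to the step in genes from MFOL, which was 1.14-fold in Ip3r2 libraries and 1.07-fold in VGlut2 libraries. They applied as well to the mitochondrial odds of MOL over NFOL, 0.846 in Ip3r2 libraries and 0.915 in VGlut2 libraries. The other 4 steps had higher p values in the exact permutation test: 0.0857 for genes over NFOL, 0.343 for genes at equal UMIs over MFOL, 0.171 for genes at equal UMIs over NFOL and 0.171 for the mitochondrial odds over MFOL.

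Median UMIs were higher in the Ip3r2 than in the VGlut2 libraries in each of the 4 stages compared. MOL had a geometric mean of 5548 UMIs in Ip3r2 libraries and 3706 in VGlut2 libraries, a 1.50-fold gap. The gap was 1.25-fold in MFOL, 1.31-fold in NFOL and 1.32-fold in OPCs. For each of these 4 gaps the libraries of the models did not overlap (exact permutation test, p = 0.0286, adjusted p = 0.0508 over the 16 tests). None of the 4 passed the threshold after this adjustment. The part of sequencing depth in the larger MOL steps of the Ip3r2 libraries, the mitochondrial odds over NFOL included, was not tested.

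**Figure D3:**
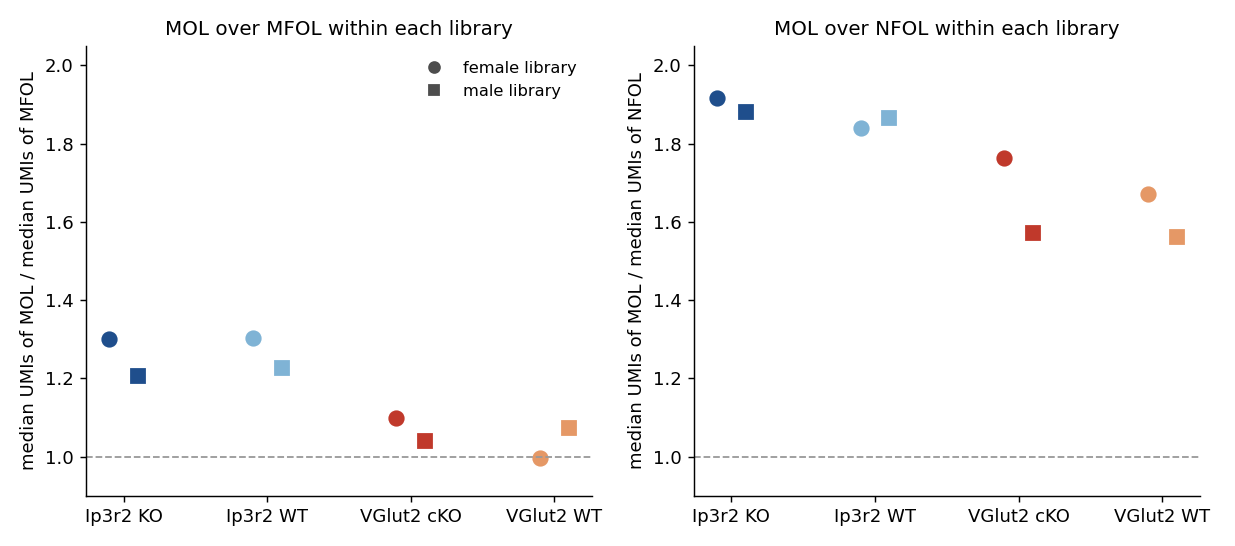
Median UMIs of MOL divided by the median UMIs of MFOL (left) and NFOL (right) of the same library; each point is 1 library, by group, with circles for female and squares for male libraries, and the dashed line marks equal medians. Over MFOL the Ip3r2 libraries reach 1.21 to 1.30 and the VGlut2 libraries 0.997 to 1.10, without overlap.

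The share of MOL differed between libraries and was lowest in the male Ip3r2 WT library. MOL made up 3.05% (female) and 2.92% (male) of the nuclei in VGlut2 cKO, against 3.23% (female) and 2.16% (male) in VGlut2 WT. They made up 1.80% (female) and 1.76% (male) in Ip3r2 KO, against 2.87% (female) and 1.05% (male) in Ip3r2 WT. In both models the 2 mutant values lay between the 2 WT values, which were far apart.

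The male Ip3r2 WT library had the lowest share, with 50 MOL among 4767 nuclei (95% Wilson interval 0.797 to 1.38%), and the female VGlut2 WT library the highest, with 173 of 5359 (2.79 to 3.74%). These intervals cover counting error only. Dixon's Q test for outliers did not flag the male Ip3r2 WT library (Q = 0.394 among Ip3r2 libraries and 0.382 among male libraries, critical value 0.829). The share of MFOL was lowest in the same library, at 0.399% of nuclei (19 nuclei). The highest share was 3.08 times the lowest, and the coefficient of variation over the 8 libraries was 33.0%, against 31.5% for mitotic OPCs, 31.1% for the class NeuronLike-Gad1, 28.2% for MFOL and 7.58% for NFOL. Without the male Ip3r2 WT library the highest share was 1.83 times the lowest and the coefficient fell to 24.2%, rank 8 of 17 classes, while mitotic OPCs stood at 33.5%. Counting alone would give MOL a coefficient of 8.65%. By the ratio of the variance to counting variance, MOL ranked 4th, at 13.6.

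**Figure D4:**
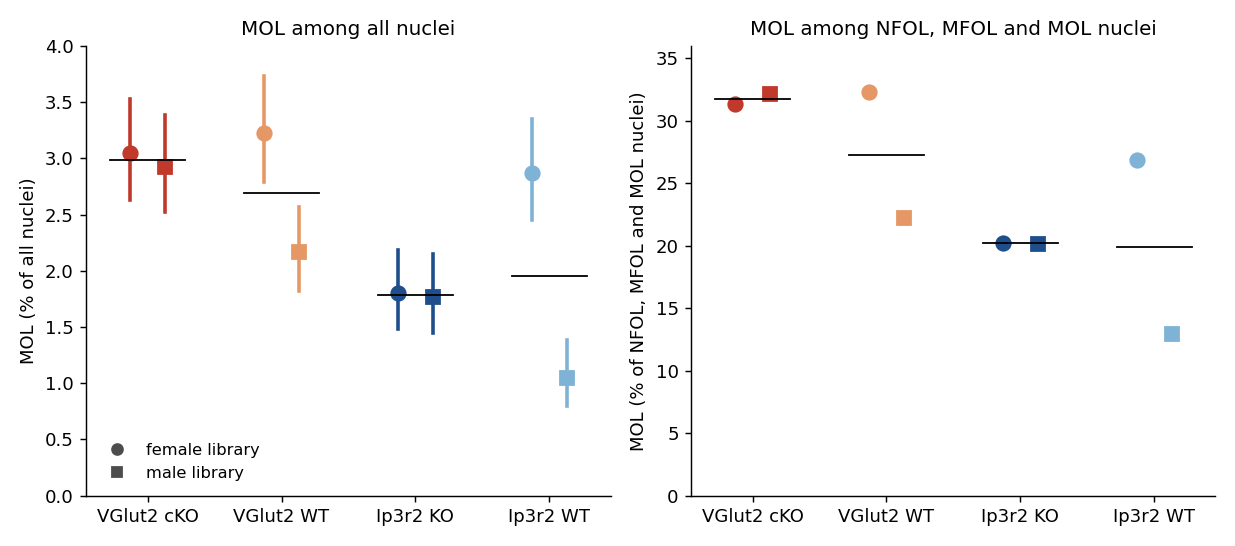
MOL as a percent of all nuclei (left, with 95% Wilson intervals) and of NFOL, MFOL and MOL nuclei together (right); circles are female and squares male libraries, and black lines are means of the 2 libraries of a group. The male Ip3r2 WT library is lowest at 1.05% of nuclei, and the mutant libraries of each model lie close together.

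No difference in MOL number between genotypes passed the test, neither with VGlut2 deleted from thalamic neurons nor with Ip3r2 absent. The log2 odds of MOL among all nuclei differed by 0.18 between VGlut2 cKO and WT (95% interval −0.73 to 1.08, limma adjusted p = 0.980). Between Ip3r2 KO and WT they differed by 0.04 (−0.87 to 0.94, limma adjusted p = 0.994), and the 2 differences themselves differed by 0.14 (−1.14 to 1.42, limma adjusted p = 0.959). In each of these 3 comparisons, 0% of the 17 classes passed. At an unadjusted p under 0.05 there were 0 classes for VGlut2, 1 for Ip3r2 and 1 for the difference, and the count test edgeR, run as an alternative, is given in the closing section. The intervals allow changes in either direction that are larger than the differences measured.

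MOL as a share of the oligodendrocyte lineage gave the same picture. It was 9.58% (female) and 11.03% (male) in VGlut2 cKO, against 11.5% (female) and 7.02% (male) in VGlut2 WT. It was 6.38% (female) and 6.20% (male) in Ip3r2 KO, against 9.01% (female) and 3.80% (male) in Ip3r2 WT. Mutant and WT libraries overlapped in both models. The log2 odds differed by 0.21 between VGlut2 cKO and WT (−0.97 to 1.396, limma adjusted p = 0.913) and by 0.10 between Ip3r2 KO and WT (−1.09 to 1.29, limma adjusted p = 0.870), and 0% of the 5 lineage stages passed in either.

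The balance of stages varied along with this. There were 5.41 and 4.02 MOL per MFOL nucleus in VGlut2 cKO, 3.76 and 2.68 in VGlut2 WT, 1.94 and 3.34 in Ip3r2 KO, and 3.02 and 2.63 in Ip3r2 WT, female before male. MOL outnumbered MFOL in every library and were fewer than NFOL in every library, with 0.158 to 0.546 MOL per NFOL nucleus. With 19 to 52 MFOL nuclei per library, the first ratio rests on small counts.

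Between the models, MOL averaged a lower share in the Ip3r2 libraries, but the libraries overlapped. The log2 odds of MOL among all nuclei were 0.69 lower in Ip3r2 than in VGlut2 libraries, and those among the lineage 0.71 lower. Neither passed the test (exact permutation of 4 against 4 libraries, both p = 0.0571, adjusted p = 0.0831 over the 16 tests).

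MOL made up a higher share of all nuclei in the female than in the male library of the same group in 4 of 4 groups, by very unequal amounts. In VGlut2 cKO both libraries held 173 MOL, and only their totals of nuclei differed. As a share of the lineage, MOL were lower in the female VGlut2 cKO library (9.58%) than in the male one (11.03%), while the other groups kept the order. The ratio of female to male share of all nuclei was 1.04 in VGlut2 cKO, 1.49 in VGlut2 WT, 1.02 in Ip3r2 KO and 2.73 in Ip3r2 WT. In limma with group and sex the log2 odds were 0.54 higher in female libraries (95% interval 0.05 to 1.02, unadjusted p = 0.0310, adjusted p = 0.400), and 0% of 17 classes passed. An exact sign-flip test over the 4 groups gave p = 0.125, the smallest it can give. The sex gap was smaller in mutant than in WT libraries by 0.98 on the log2 scale (−2.003 to 0.04, limma adjusted p = 0.619), with 0% of 17 classes past the threshold. This comparison was chosen after the gap had been seen to be larger in WT libraries. Since each sex of a group is 1 library, sex cannot be told apart from the library. In both limma fits of sex the standard error was equal for all classes, so these intervals and p-values do not rest on the spread of MOL alone.

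No difference in the RNA content of MOL between genotypes passed the test either. The log2 difference in median UMIs was 0.08 between VGlut2 cKO and WT (−0.31 to 0.47, limma adjusted p = 0.960) and 0.05 between Ip3r2 KO and WT (−0.34 to 0.44, limma adjusted p = 1.0). For detected genes it was 0.04 (−0.28 to 0.35) and 0.03 (−0.28 to 0.35), and for the mitochondrial odds 0.00 (−0.09 to 0.09) and −0.06 (−0.15 to 0.03), each time with the VGlut2 model before the Ip3r2 model. Classes entered these fits when each library held at least 20 of their nuclei, and in each fit 0% of the 15 such classes passed. In the fits of sex, UMIs, genes and mitochondrial share, the standard error from limma was equal for all classes, so these intervals are not the spread of MOL alone.

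White matter astrocytes, the astrocyte group that the annotation names for the tissue richest in myelin, were set beside MOL. They made up 8.65% and 9.40% of astrocytes in VGlut2 cKO, 8.66% and 8.86% in VGlut2 WT, 8.98% and 11.1% in Ip3r2 KO, and 8.18% and 11.7% in Ip3r2 WT, female before male. The MOL share of the lineage was lower where this share was higher, with Pearson's r = −0.70 over 8 libraries (exact permutation p = 0.0530, adjusted p = 0.0530 over 3 stages) and Spearman's rho = −0.62 (exact permutation p = 0.115, adjusted p = 0.172). Without the 2 libraries farthest from the median, the male Ip3r2 WT and male Ip3r2 KO libraries, r was 0.05 (n = 6), so the relation rests on those libraries. The other stages gave relations as strong, with r = −0.72 for MFOL and 0.75 for NFOL (exact permutation, both adjusted p = 0.0530), and without the same 2 libraries r was 0.04 for MFOL and −0.07 for NFOL. With 4 libraries in each model, no r was computed within models.

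**Figure D5:**
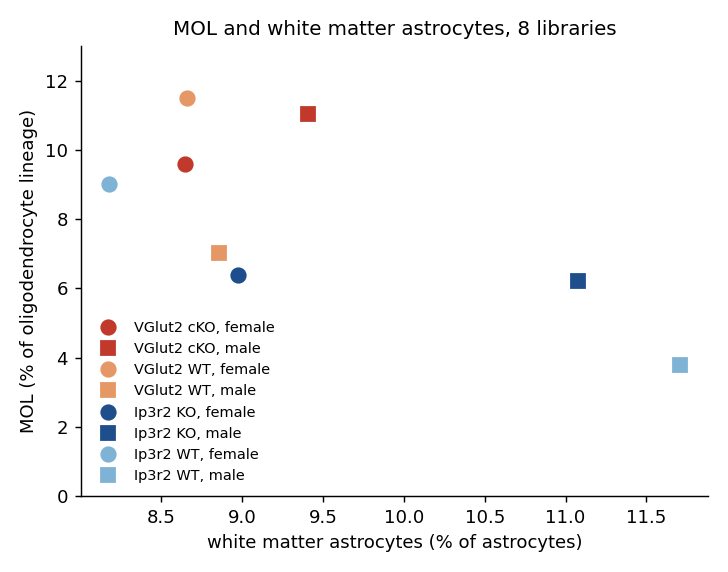
MOL as a percent of the oligodendrocyte lineage against white matter astrocytes as a percent of astrocytes; each point is 1 library, coloured by group, with circles for female and squares for male. The male Ip3r2 KO and male Ip3r2 WT libraries stand apart at 11.1% and 11.7% white matter astrocytes.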

How the data were processed

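Nuclei of 8 libraries were read from the authors' deposited table, 1 line per nucleus. Cell Ranger and the mm10 build are named in the submitters' processing notes. By the study's methods, doublets were removed with Scrublet, libraries were integrated with Scanorama, and nuclei were clustered with Leiden in Scanpy and named from marker genes. UMIs and genes are counts as deposited, without normalization. The mitochondrial value, headed as a percent, was deposited as a fraction: times the UMIs it was whole within 0.001 in 44021 of 44021 nuclei. The embedding coordinates are scores deposited by the authors and support no result here.

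Tallies were compared as log2 odds (offset 0.5) with limma 3.58.1 in R 4.3.3, all 8 libraries in 1 fit, with Benjamini-Hochberg adjustment and a threshold of 0.05. Library medians were compared as log2 values. Exact tests used Python 3.11.15 and scipy 1.17.1, and all tests were two-sided. Exact permutation of 2 against 2 libraries cannot go below p = 0.333. Replicates were numbered in accession order, replicate 1 being the male library. Since libraries pool different mice, p-values measure the spread between pools. In the limma fits that spread was drawn partly or fully from all classes of a fit. Alternatives were edgeR 4.0.16, an offset of 1, glia as the denominator, means, nuclei with at least 500 genes, a same-sex pairing, each library left out and removal of shared barcodes. The limma fit of class shares was also run on simulated tallies with a large change in 1 class. Their spread between libraries was set below that of MOL here, so that run does not show the power of the fit for MOL. Levels of single genes were not analysed, so classes were named in place of genes: MOL, the other lineage stages, white matter astrocytes and any class past a threshold. The classes and comparisons were chosen with earlier results of these data known, that of the sex gaps after the gap was seen to be larger in WT libraries. The comparisons between the models, the spread of shares with a library left out and the removal of shared barcodes were added after the data were seen, the 2 tests of MOL share last.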

Additional observations from a re-analysis of the deposited data

How the results depend on the processing

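Of 434 alternative values, 266 bear on stability. In the rest, the exact test had too few libraries to pass or, in 40, the library left out did not enter the value. Among the 266, 11 values came from a replicate block, whose direction the balanced design fixed. Of the 266, 250 kept their direction and their side of the threshold, 14 changed direction and 2 passed the threshold where the value reported did not. The 8 comparisons of stages within libraries kept theirs under every alternative run. With edgeR, the log2 difference in MOL share between Ip3r2 KO and WT was −0.14 (adjusted p = 0.963) among all nuclei and −0.036 among the lineage, opposite in direction to limma. With a replicate block for the same-sex pair, the VGlut2 difference in MOL share was 0.18 (limma adjusted p = 0.976) and the Ip3r2 difference 0.04 (limma adjusted p = 0.993). Each pair holds 1 WT and 1 mutant library, so these differences equal those without the block by construction. The block could change only the p values, and it changed no call. The labels do not state that these pairs were matched. Leaving out 1 library at a time, the log2 difference in share of nuclei ran from −0.12 to 0.47 for VGlut2, −0.70 to 0.77 for Ip3r2 and −0.59 to 0.88 for the difference between them, and in share of the lineage from −0.18 to 0.60 and −0.56 to 0.76. The female minus male difference ran from 0.23 to 0.71 and never passed. The genotype difference in MOL UMIs ran from −0.15 to 0.30 for VGlut2. Leaving out the male VGlut2 cKO library gave 0.30, past the threshold, but left 1 library in that group. In that fit 8 of 15 classes passed, all 8 higher in VGlut2 cKO, so the shift was not one of MOL alone. The genotype difference in MOL genes ran from −0.12 to 0.19 (VGlut2) and −0.027 to 0.095 (Ip3r2). That in mitochondrial odds ran from −0.014 to 0.017 (VGlut2) and −0.13 to 0.011 (Ip3r2). The correlation with white matter astrocytes ran from r = −0.78 to −0.44, and without the male VGlut2 cKO library r was −0.78 (exact permutation, adjusted p = 0.0411). The difference between models in the MOL over MFOL step in UMIs ran from 0.23 to 0.28, but with 7 libraries no exact p can fall below 0.0571. The MFOL values of the male Ip3r2 WT library rest on 19 nuclei.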
